A study of Mus musculus with 2 samples.

Results

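The genes described here are *Ppara* and 7 known targets of its product, of which *Cpt1a*, *Cpt2*, *Acadm*, *Acadl*, *Hadha* and *Ehhadh* serve hepatic fatty acid oxidation and *Fgf21* encodes a hormone. Their chromatin accessibility was read from ATAC-seq, in which the Tn5 transposase cuts open DNA and tags it for sequencing. All distinct regions whose nearest transcription start site (TSS) belonged to 1 of these genes were taken, which gave 41 of 69549 regions. Of the 41, 10 had their centre within 1 kb of the TSS and are called promoter regions, and 31 lay farther away and are called other regions. All 8 genes had a promoter region, and 7 had at least 1 other region, *Acadl* being the exception.

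The samples were 2 libraries from livers of C57BL/6 mice, aged 8 weeks and fed chow. The control library came from *Mettl3* flox/flox mice, and the knockout library from Mettl3-HKO mice, which carry the same floxed alleles together with 1 copy of Alb-Cre. The albumin promoter drives this recombinase in hepatocytes, and the authors describe the knockout as specific to them. Whether each other cell type of the liver keeps *Mettl3* was not examined here. The gene encodes the catalytic subunit of the m6A methyltransferase. Each library was a pool of 4 livers, so there was no replicate, no test between genotypes was possible, and every comparison below is between the 2 libraries.

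PPARα, encoded by *Ppara*, is a nuclear receptor that pairs with an RXR partner, is activated by fatty acids, and switches on the burning of fat in the fasted liver. Long-chain fatty acids are coupled to coenzyme A, carried into mitochondria by the carnitine shuttle, and shortened there by repeated rounds of dehydrogenation, hydration and thiolysis. Very long chains are first shortened in peroxisomes, and the acetyl-CoA that accumulates feeds ketone body synthesis. FGF21 is a hormone that the liver secretes under the control of the same receptor.

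The libraries held 52826202 and 58038305 reads by the totals used for scaling, of which 31.7% (flox/flox) and 22.3% (Mettl3-HKO) lay on regions. Ratios are given as log2 of Mettl3-HKO over flox/flox, with 1 read added to each count and each library scaled to its total, as in the RPM values of the authors (reads scaled to a common library size). On this scale the median of all regions was −0.38, that of all 14387 promoter regions −0.56 and that of all 55162 other regions −0.27, so a ratio below 0 was the common case. Ratios also went with signal. When the regions of each kind were split by mean RPM into 10 signal classes of equal size, the median from the weakest to the strongest class ran from 0.15 to −0.65 among promoter regions and from 0.86 to −0.67 among other regions. The *Mettl3* promoter region had 566 and 392 counts, a log2 ratio of −0.66 (a value that says nothing of the genotype labels, because a promoter can be open whether or not an exon is deleted). All 8 hepatocyte marker genes examined had a promoter region.

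All 10 promoter regions of the 8 genes had fewer reads in the Mettl3-HKO library, relative to its total, and for each the 95% Clopper-Pearson interval of the ratio, which covers counting error only, lay below 0. Among all promoter regions 72.4% had an interval below 0 and 8.08% one above 0. The log2 ratios ran from −1.56 to −0.51 with a median of −0.73. Of the 10 regions, 3 were at least 2-fold lower, at *Ehhadh*, *Fgf21* and *Ppara*, and 0 were at least 2-fold higher, against 16.3% and 4.07% of all promoter regions. Relative to the median of all regions, 2 were 2-fold lower, at *Ehhadh* and *Fgf21*, and 0 higher, while 5% and 6.9% of all promoter regions were. The members' median on that scale was −0.35, beside −0.19 for all promoter regions. Centred instead on the strongest 10% of promoter regions, the strongest regions of *Cpt1a*, *Cpt2*, *Acadm* and *Acadl* came to lie above 0, at 0.024 to 0.14, and those of the other 4 genes below it. A peak was called in both libraries at 8 of the 10 regions and only in the flox/flox library at the other 2. Among all promoter regions 8.26% had a peak in flox/flox alone and 8.40% in Mettl3-HKO alone.

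**Figure D1:**
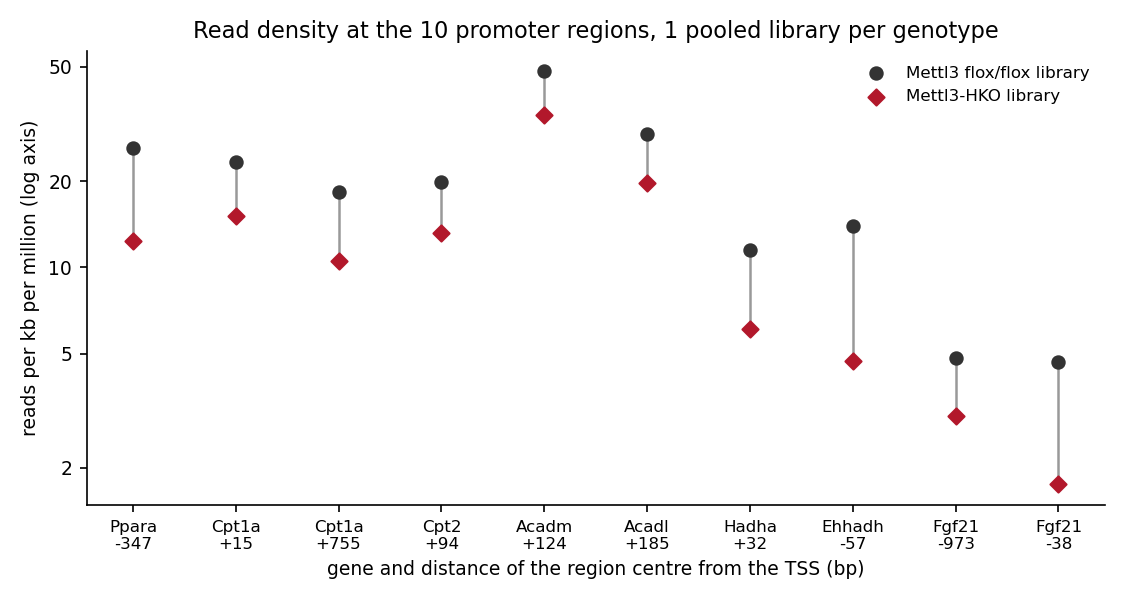
Read density (RPM per kb of region, log axis) at the 10 promoter regions of the 8 genes, with the distance of each region's centre from the TSS below the gene name. Each gray line joins the flox/flox library (circle) to the Mettl3-HKO library (diamond), 1 pooled library each. The diamond lies below the circle at every region, and the line is longest at *Ehhadh*, from 14.0 to 4.72.

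To compare levels between genes, reads were divided by the length of each gene's strongest promoter region, the one with the highest mean RPM over both libraries. For *Fgf21* this is the region 973 bp upstream of the TSS and not the one over its start. In the flox/flox library the density was highest at *Acadm*, with 48.3 RPM per kb, followed by *Acadl* (29.2), *Ppara* (26.1), *Cpt1a* (23.2), *Cpt2* (19.8), *Ehhadh* (14.0), *Hadha* (11.5) and *Fgf21* (4.82). The exact Poisson intervals of neighbours in this order overlapped for *Ppara* with *Cpt1a* and for *Cpt1a* with *Cpt2*, and for no other neighbours. In the Mettl3-HKO library *Acadm* (33.96) and *Acadl* (19.7) again came first, followed by *Cpt1a* (15.1), *Cpt2* (13.2), *Ppara* (12.4), *Hadha* (6.12), *Ehhadh* (4.72) and *Fgf21* (3.03). *Ppara* thus stood above *Cpt1a* and *Cpt2* in the flox/flox library and below them in the Mettl3-HKO library, where its interval overlapped that of *Cpt2* but not that of *Cpt1a*, and *Ehhadh* and *Hadha* changed places.

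The receptor gene *Ppara* (ENSMUSG00000022383) lies on the plus strand of chromosome 15. Its promoter region spans 1352 bp from 85734754 to 85736105 on GRCm38, is centred 347 bp upstream of the TSS given by the authors and inside the gene as RefSeq draws it, and held 1865 flox/flox and 971 Mettl3-HKO counts, an order kept for the counts below. The log2 ratio was −1.08 (95% interval −1.19 to −0.96), which placed the region at percentile 12.8 of all promoter regions and at percentile 8.69 of the strongest signal class, to which it belongs. All 8 other regions of *Ppara* also had a ratio below 0, as had 33011 of all 55162 other regions. The 8 regions lie 12753 bp and 3127 bp upstream of the TSS and, for the remaining 6, in intron 2, and their ratios ran from −1.37 to −0.34. The strongest, 36026 bp downstream, had 1135 and 759 counts (log2 ratio −0.72, interval −0.85 to −0.58), and the one 3127 bp upstream had 533 and 367 (log2 ratio −0.67). The lowest ratio was that of the region 7046 bp downstream, with 114 and 48 counts and a peak in flox/flox alone.

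Summed over the 8 other regions, the counts were 2133 and 1415, and the log2 ratio of other regions over the promoter was 0.35 (exact conditional interval 0.20 to 0.50), a value that does not depend on library scaling. Taken singly, 3 of the 8 regions had an interval above 0 against the promoter, those at 12753 bp and 3127 bp upstream and at 36026 bp downstream, and the regions at 7046 bp (−1.37) and 10676 bp (−1.16) had lower ratios than the promoter, with intervals that held 0. A further 3 regions lie inside *Ppara*, in introns 2, 3 and 4, but are nearest to the TSS of *Cdpf1* and so were not counted among the 41. They had 276 and 150, 104 and 41, and 494 and 301 counts, with log2 ratios of −1.01, −1.46 and −0.85. On the authors' scale every region listed inside *Ppara* thus had a ratio below 0, which was the common case. Of all regions, 33011 of 55162 other regions and 12073 of 14387 promoter regions lay below 0.

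*Cpt1a* and *Cpt2* encode the outer and inner carnitine palmitoyltransferases, which carry long-chain acyl groups into the mitochondrion, CPT1A being the rate-controlling step in liver. *Cpt1a* (ENSMUSG00000024900), on the plus strand of chromosome 19, had a promoter region from 3323137 to 3323497, centred in the 5′ UTR, and another from 3323957 to 3324156 in intron 1. The first had 443 and 316 counts (log2 ratio −0.62, interval −0.84 to −0.41). The second had 193 and 122 counts (−0.79, interval −1.14 to −0.46), and the peak was flox/flox only. These ratios were at percentiles 44.2 and 29.4 of all promoter regions.

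The 9 other regions of *Cpt1a* ran from −1.01 to 0.43. The lowest was a region of 834 bp in intron 1, 3115 bp downstream of the TSS, with 573 and 313 counts (interval −1.21 to −0.81). The highest was in intron 3, 30479 bp downstream, where counts went from 132 to 196 (interval 0.11 to 0.76), and it stood 1.06 above the strongest promoter region of the gene on the log2 scale (interval 0.67 to 1.45). A region 12857 bp downstream in intron 1 had 118 and 130 counts (log2 ratio 0.0029) and a peak in Mettl3-HKO alone. Summed over the gene, other regions and promoter regions could not be told apart (log2 ratio of other over promoter 0.095, interval −0.11 to 0.30).

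*Cpt2* (ENSMUSG00000028607), on the minus strand of chromosome 4, had a promoter region from 107923195 to 107923837, centred in exon 1, with 672 and 492 counts (log2 ratio −0.58, interval −0.76 to −0.42). Its 2 other regions, both in intron 1, had 452 and 303 counts (−0.71) and 177 and 145 counts (−0.42). The ratio at the promoter and that of the intron sum differed by −0.040 (interval −0.29 to 0.21), so no difference between them was detectable at this depth.

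*Acadm* and *Acadl* encode the medium-chain and long-chain acyl-CoA dehydrogenases, which carry out the opening step of mitochondrial β-oxidation, and *Hadha* encodes the alpha subunit of the mitochondrial trifunctional protein, which takes long chains through the next steps. *Acadm* (ENSMUSG00000062908), on the minus strand of chromosome 3, had the densest promoter of the 8, from 153943926 to 153945091 and centred in exon 1. It had 2972 and 2298 counts and the smallest reduction of the 10 promoter regions (log2 ratio −0.51, interval −0.59 to −0.43), near the middle of all promoter regions at percentile 55.4. *Acadl* (ENSMUSG00000026003), on the minus strand of chromosome 1, had a region from 66862624 to 66863561, centred in intron 1, with 1449 and 1075 counts (−0.57, interval −0.68 to −0.45). It was the only region assigned to *Acadl*.

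*Hadha* (ENSMUSG00000025745) is on the minus strand of chromosome 5. Its promoter region, from 30154518 to 30155742, had 742 and 435 counts (log2 ratio −0.90, interval −1.08 to −0.73). The region also overlaps *Hadhb*, the gene of the beta subunit of the same protein, whose RefSeq gene reaches into it, so the value belongs to both genes and cannot be split between them. The only other region of *Hadha*, in intron 3, had 42 and 16 counts (−1.47, interval −2.46 to −0.67) and a peak in flox/flox alone. A region in intron 18, nearest to the TSS of *3110082J24Rik* and therefore outside the 41, went the other way, with 12 and 53 counts (1.92, interval 1.08 to 3.05) and a peak in Mettl3-HKO alone.

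The body of *Acadm* stood apart from its promoter. The gene had 4 intronic regions with higher ratios than the promoter, and all 4 lay above 0 on the authors' scale. The region in intron 6 had 124 and 175 counts (log2 ratio 0.36, interval 0.02 to 0.71). In intron 8 the counts were 244 and 291 in one region (0.12, interval −0.13 to 0.37) and 170 and 277 in the other (0.57, interval 0.29 to 0.85). In intron 9 they were 679 and 791 (0.084, interval −0.07 to 0.23). On the authors' scale 2 of the 4 intervals thus lay above 0, whereas the differences from the *Acadm* promoter, which are free of scaling, ran from 0.59 to 1.08 with all 4 intervals above 0. Within their signal classes, the 4 ratios stood between percentiles 84.2 and 93.96. The fifth other region, 14956 bp upstream, had 42 and 28 counts (−0.70, interval −1.47 to 0.0032). A region just beyond the 3′ end of *Acadm*, from 153921470 to 153921867 and nearest to a different TSS, had 65 and 219 counts (1.60, interval 1.21 to 2.04). It was looked up after the intron values had been seen.

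**Figure D2:**
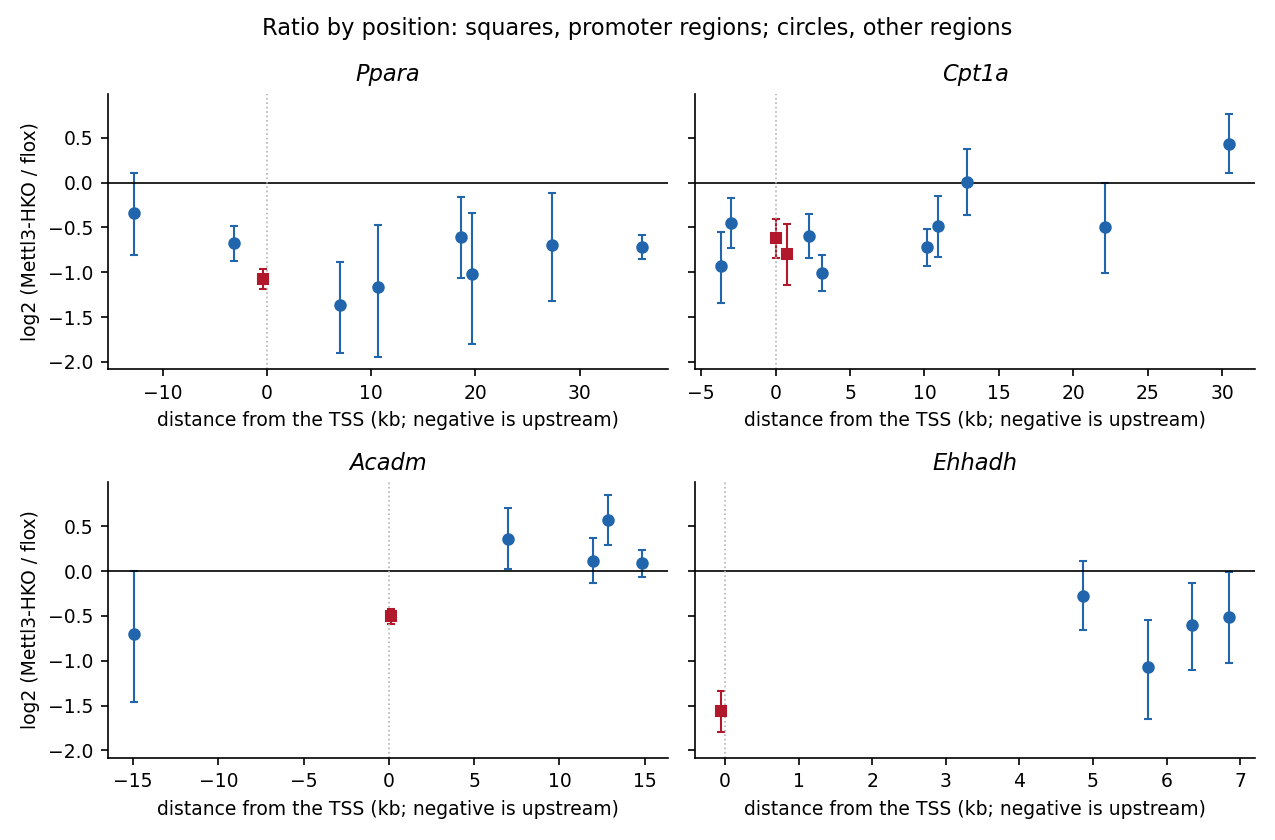
Log2 ratio of Mettl3-HKO over flox/flox (authors' scale) against the distance of each region's centre from the TSS in kb, for *Ppara*, *Cpt1a*, *Acadm* and *Ehhadh*. Squares are promoter regions, circles other regions, and bars 95% Clopper-Pearson intervals. The 4 intronic regions of *Acadm* lie above 0 to the right of a promoter at −0.51, all regions of *Ppara* lie below 0, and the *Ehhadh* promoter at −1.56 lies below its 4 intronic regions.

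*Ehhadh* encodes the bifunctional enzyme of peroxisomal β-oxidation and is a classical PPARα target. The gene (ENSMUSG00000022853) is on the minus strand of chromosome 16, and its promoter region, from 21787505 to 21788299 and centred 57 bp upstream of the TSS, had 586 flox/flox counts and 218 Mettl3-HKO counts. This was the largest reduction of the 10 promoter regions, with a log2 ratio of −1.56 (interval −1.79 to −1.34), and it placed the region at percentile 2.78 of all promoter regions and percentile 2.23 of its signal class, whose median was −0.62. All 4 other regions of *Ehhadh* lie in intron 1, with centres within 2 kb of each other. They had 120 and 109, 85 and 44, 89 and 64, and 78 and 60 counts, with log2 ratios of −0.27, −1.07, −0.61 and −0.51. Together the intronic regions stood 1.0 above the promoter on the log2 scale (interval 0.68 to 1.33), so the ratio was lower at the start of *Ehhadh* than inside it. Part of such a difference is common to the table. The signal classes of the 4 intronic regions had medians of −0.35 to −0.090, above that of the promoter's class. Over all genes with both kinds of region, other regions stood a median of 0.20 above promoter regions.

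*Fgf21* (ENSMUSG00000030827), on the minus strand of chromosome 7, had the fewest promoter reads. The region over the start, from 45615382 to 45615676 and centred 38 bp upstream of the TSS, had 73 and 30 counts (log2 ratio −1.39, interval −2.08 to −0.79), with a peak in flox/flox alone. It lay at percentile 4.75 of all promoter regions and percentile 6.67 of its signal class. The region centred 973 bp upstream had 68 and 47 counts (−0.66, interval −1.24 to −0.11). The difference between these neighbours was −0.75, with an interval from −1.63 to 0.12, so the depth could not tell it from 0.

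The 2 other regions of *Fgf21* lie beyond its 3′ end. The one 4507 bp from the TSS had 136 and 119 counts (log2 ratio −0.33, interval −0.70 to 0.04). The one at 5681 bp had 15 and 46 counts and a peak in Mettl3-HKO alone (1.42, interval 0.61 to 2.43), and it was the only region of the 41 that was at least 2-fold higher. The median of its signal class, the second weakest, was 0.28, and the region stood at percentile 84.8 of that class. Other over promoter regions of *Fgf21* gave a log2 ratio of 1.0 (interval 0.47 to 1.54), which is 0.34 (interval −0.34 to 1.02) when the region at 4507 bp is set alone against the region 973 bp upstream.

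The 250 bases before the RefSeq start of 3 of the genes are printed here from the RefSeq promoter sequences of GRCm38.p6, to show the DNA under the 2 largest promoter reductions and the smallest. They run 5′ to 3′ along the strand of the gene, for *Ehhadh* at chr16:21787835-21788084, for *Fgf21* at chr7:45615491-45615740 and for *Acadm* at chr3:153944644-153944893, all on the minus strand. Capitals mark matches on either strand to any motif searched. These were AGGTCA, the core that nuclear receptors such as PPARα bind, and DR1, made of 2 cores of the form AGGNCA in the same direction with 1 base between them. The others were GGGCGG, known as the GC box, then the sequence CCAAT, bound by the factor NF-Y, the sequence TATAAA of the TATA box, and the sequence TGATGCAA, which resembles the amino acid response element.
Ehhadh: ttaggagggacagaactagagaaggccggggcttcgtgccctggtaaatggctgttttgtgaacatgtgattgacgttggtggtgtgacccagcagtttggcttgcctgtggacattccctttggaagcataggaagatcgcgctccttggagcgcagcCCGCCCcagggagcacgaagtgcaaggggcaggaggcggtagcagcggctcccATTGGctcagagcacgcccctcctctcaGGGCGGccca
Fgf21: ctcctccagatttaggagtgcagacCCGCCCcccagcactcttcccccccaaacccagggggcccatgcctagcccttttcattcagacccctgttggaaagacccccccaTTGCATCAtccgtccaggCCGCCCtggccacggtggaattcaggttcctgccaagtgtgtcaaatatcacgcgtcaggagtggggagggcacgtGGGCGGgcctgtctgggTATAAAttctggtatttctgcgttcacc
Acadm: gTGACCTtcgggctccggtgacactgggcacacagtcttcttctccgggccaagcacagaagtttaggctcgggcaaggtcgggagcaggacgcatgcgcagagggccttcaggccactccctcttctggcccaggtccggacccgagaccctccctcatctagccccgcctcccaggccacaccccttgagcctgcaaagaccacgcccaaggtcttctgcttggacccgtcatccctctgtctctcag

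All of the *Ehhadh* and *Acadm* windows lay inside their promoter regions, and 74.4% of the *Fgf21* window did. *Ehhadh* had GGGCGG at 2 places and CCAAT at 1. *Fgf21* was the only gene of the 8 with TATAAA, 28 to 23 bases before the start, and the only one with TGATGCAA, and it had GGGCGG at 3 places. *Acadm* was the only gene without GGGCGG and had 1 match to AGGTCA, at the far end of the window. Over all 8 genes, GGGCGG was found in 7, AGGTCA in 2 (*Cpt1a* and *Acadm*), CCAAT in 2, TATAAA in 1 and TGATGCAA in 1. The shares among all 32851 promoters of the same length were 32.7% for GGGCGG, 14.0% for AGGTCA, 33.8% for CCAAT, 12.4% for TATAAA and 0.791% for TGATGCAA. Among 59 promoters of the wider pathway list described below they were 52.5%, 16.9%, 45.8%, 3.39% and 1.69%, in the same order. DR1 was found in 0 of the 8 windows and in 0.338% of all promoters. The median GC content was 60.0% for the 8 windows and 52.4% for all promoters.

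The strongest promoter regions of the 8 genes were compared with each other by exact conditional intervals of their ratios, which do not depend on scaling. Of the 28 comparisons, 15 had a 95% interval that left out 0, without adjustment for their number. The *Ehhadh* ratio was lower than that of the strongest region of each of the other 7 genes, by 0.48 against *Ppara* (interval 0.23 to 0.74) and by 1.06 against *Acadm* (interval 0.81 to 1.30). *Ppara* and *Hadha* were each lower than *Cpt1a*, *Cpt2*, *Acadm* and *Acadl*, and their own difference of −0.17 had an interval from −0.38 to 0.04. *Cpt1a*, *Cpt2*, *Acadm* and *Acadl* lay within 0.12 of each other, and none of the intervals between them left out 0. The *Fgf21* region used here, the one 973 bp upstream, was distinguishable only from *Ehhadh*, as its few reads gave wide intervals. The *Fgf21* region over the start (−1.39, interval −2.08 to −0.79) was not compared in this way, and its interval overlapped that of *Ehhadh* (−1.79 to −1.34).

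**Figure D3:**
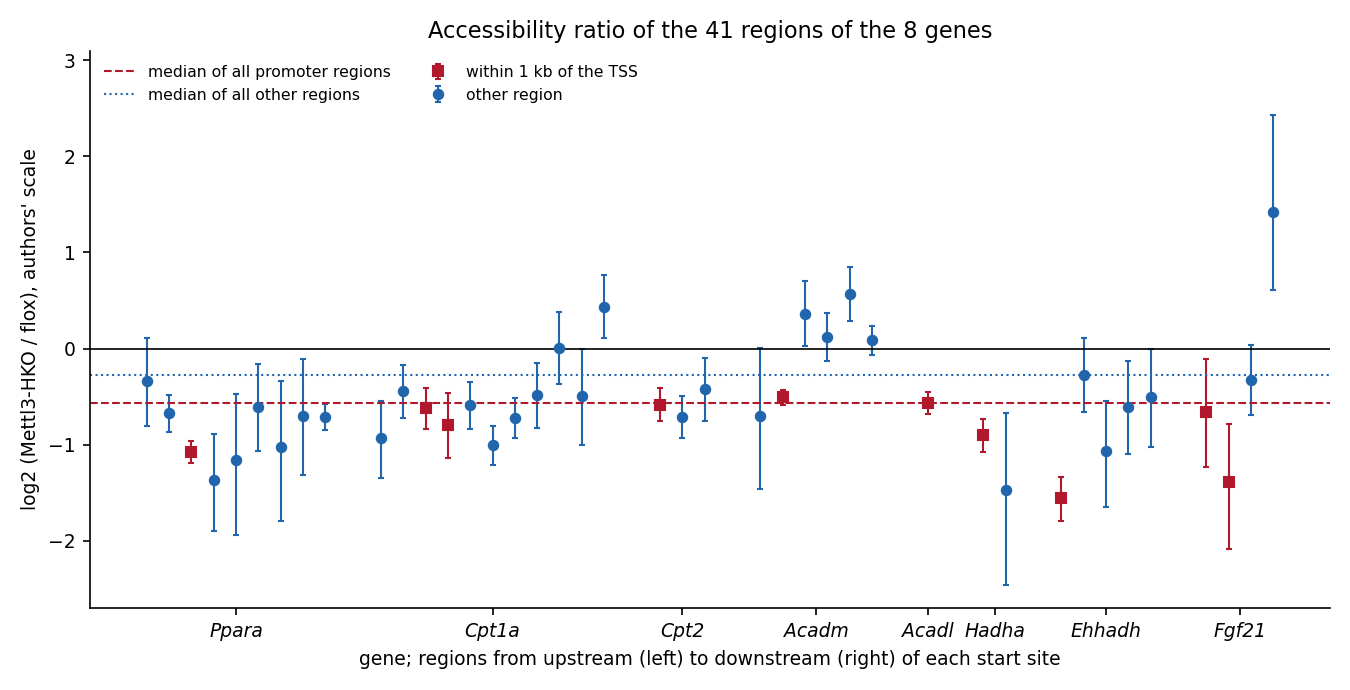
Log2 ratio of Mettl3-HKO over flox/flox (authors' scale) for the 41 regions, by gene, from upstream to downstream of each start site. Red squares are promoter regions, blue circles other regions, bars 95% Clopper-Pearson intervals, and the dashed and dotted lines the medians of all promoter and of all other regions (−0.56 and −0.27). All 10 squares lie below 0, 24 of the 31 circles lie below 0, and 4 of the 7 circles above 0 belong to *Acadm*.

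Over the 31 other regions the median log2 ratio was −0.59, below the −0.27 of all other regions, and it was −0.60 over the 26 regions left without those of *Acadm*. The range was −1.47 to 1.42. Intervals lay below 0 in 20 and above 0 in 4 of the 31, against 42.5% and 24.5% of all other regions. Of the 31, 6 were at least 2-fold lower and 1 at least 2-fold higher, while 18.8% and 15.6% of all other regions were. Relative to the median of all regions 1 was 2-fold lower and 1 higher, against 8.65% and 23.5%. The members' other regions were stronger than most, with a median of 124 counts in the flox/flox library against 66 over all other regions, and the ratios of strong regions were lower across the table. A peak was called only in the flox/flox library at 7 and only in the Mettl3-HKO library at 2 of the 31, with 19.1% and 24.9% of all other regions in those classes.

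Across the 7323 genes with both kinds of region, the log2 ratio of other over promoter regions had a median of 0.20 and was above 0 in 61.6%. Among the 7 genes here it was above 0 in 5, and its interval lay above 0 in 4, at *Ehhadh*, *Fgf21*, *Acadm* and *Ppara*, as in 39.4% of the 7323 genes. *Ehhadh* and *Fgf21* both stood at percentile 82.8 of the 7323 genes, *Acadm* at 73.2 and *Ppara* at 58.3. *Hadha* was at percentile 12.5 with an interval from −1.57 to 0.26. Regions just inside the 1 kb limit, at 755 bp in *Cpt1a* and 973 bp in *Fgf21*, had ratios of −0.79 and −0.66, and those just outside it, at 1473 bp and 2111 bp in *Cpt2*, had −0.71 and −0.42.

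The wider pathway was described through a list of 65 further genes, of which 54 had a promoter region. Their 68 promoter regions had a median log2 ratio of −0.76, or −0.39 relative to the median of all regions. Of the 68, 13 were at least 2-fold lower and 4 at least 2-fold higher on the authors' scale, and 4 were lower and 6 higher relative to the median of all regions. These shares were near those of all promoter regions, 16.3% and 4.07% on the authors' scale and 5% and 6.9% after centring. Intervals lay below 0 in 57 and above 0 in 7, against 72.4% and 8.08% of all promoter regions. The class counts that follow are small and are to be read beside the same shares. They are descriptions, and no class was tested. Near-identical genes of the list (the *Cyp4a*, *Acaa1* and *Acot* families) are uncertain, since how reads that match several copies were treated is known only through the mapping quality filter.

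Among partners and coregulators of the receptor, 13 promoter regions had a median of −0.82, and 4 were 2-fold lower. *Rxra*, the gene of the dimer partner, had 562 and 323 counts (log2 ratio −0.93). The range of strongest regions ran from *Ppargc1b*, a coactivator, at −1.39 to *Pparg*, the receptor best known from fat tissue, at 0.085. For activation and mitochondrial entry, 11 promoter regions had a median of −0.69 and 1 was 2-fold lower, *Cpt1b*, the muscle form of CPT1, at −1.24. *Acsl5*, an acyl-CoA synthetase, was highest at −0.18, and *Acsl1*, the main synthetase of liver, and *Slc25a20*, the carnitine carrier, stood at −0.70 and −0.74. For mitochondrial β-oxidation, all 10 promoter regions had an interval below 0 (72.4% of all promoter regions did), with a median of −0.76, from *Hadh* (1162 and 620 counts, −1.04) to *Acadvl*, the very-long-chain dehydrogenase (376 and 299 counts, −0.47).

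Peroxisomal and microsomal oxidation had the widest spread. Its 18 promoter regions had a median of −0.86, with 4 at least 2-fold lower and 3 at least 2-fold higher. *Abcd2*, a peroxisomal fatty acid transporter, had 460 and 137 counts (log2 ratio −1.88, interval −2.17 to −1.60), the lowest value among the promoter regions of the list. *Cyp4a12a*, a fatty acid omega-hydroxylase, had 18 and 45 counts (1.14, interval 0.37 to 2.06), the highest strongest-region value. The related genes *Cyp4a10* and *Cyp4a14* were at −0.94 and −0.88.

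Of 9 promoter regions of further PPARα targets, 6 had an interval below 0 and 3 above 0, with a median of −0.84. *Angptl4*, an inhibitor of lipoprotein lipase, had 490 and 253 counts (log2 ratio −1.09), and *Pdk4*, which restrains glucose oxidation, had 1831 and 1198 (−0.75). *Ucp2*, a mitochondrial carrier, had 87 and 154 counts (0.68, interval 0.30 to 1.08). The receptor side of FGF21 was split between *Klb*, the co-receptor, at −0.69, and *Fgfr1*, the kinase receptor, at 0.66 (111 and 193 counts, interval 0.32 to 1.01). *Hadhb*, *Creb3l3*, *Crot*, *Me1* and 7 other genes of the list had no promoter region of their own in the table, *Hadhb* because the region it shares is assigned to *Hadha*.

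**Figure D4:**
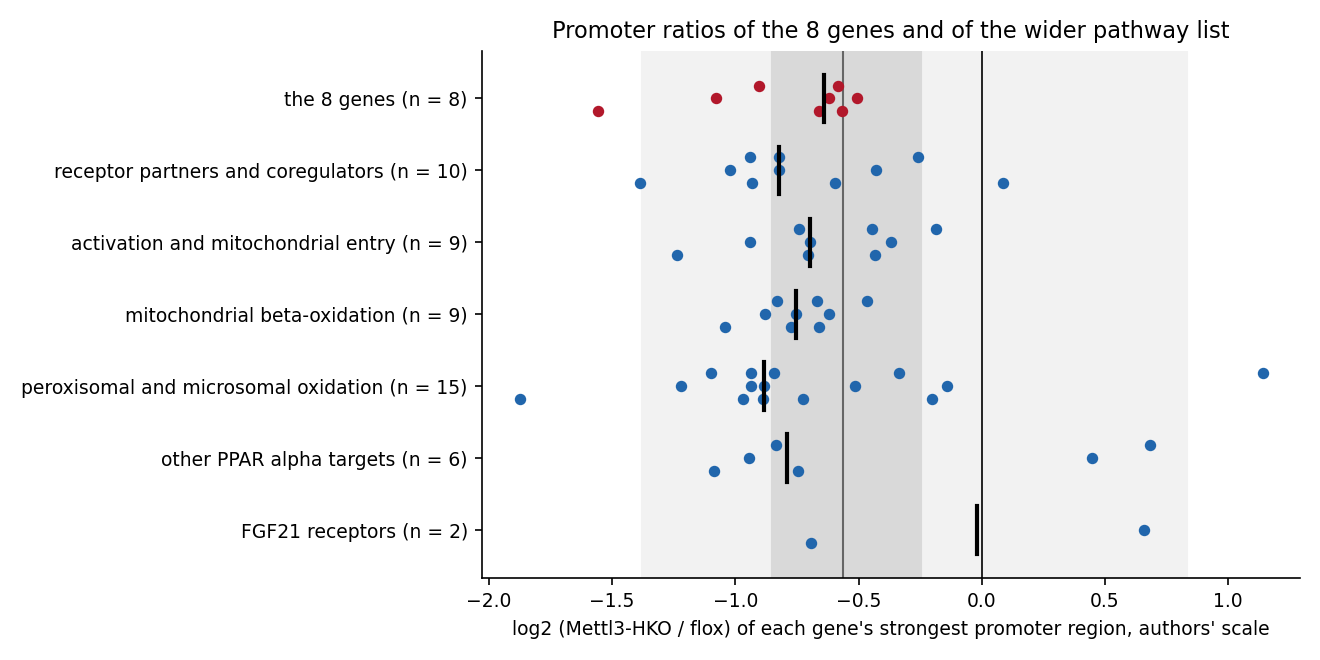
Log2 ratio of Mettl3-HKO over flox/flox (authors' scale) of each gene's strongest promoter region, for the 8 genes (red) and for 6 classes of the wider list (blue), with class medians as black bars. For *Fgf21* this is the region 973 bp upstream, so the region over its start (−1.39) is not drawn. The gray line is the median of all promoter regions (−0.56), and the dark and light bands hold the middle 50% and 90% of them. *Ehhadh* at −1.56 and *Abcd2* at −1.88 lie left of the light band, *Ppargc1b* at −1.39 lies at its edge, and *Cyp4a12a* at 1.14 lies right of it.

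Markers of other liver cells had few promoter regions, apart from the endothelial ones. The promoter regions of 7 of 8 endothelial markers held 153 flox/flox and 400 Mettl3-HKO counts in all, which is 1.24 on the log2 scale, and those of 2 of 8 macrophage markers held 84 and 185. The endothelial promoter regions were weak, with a median of 19 flox/flox counts against 370 over all promoter regions and 501 for hepatocyte markers. Weak promoter regions had higher ratios across the table, with a median of 0.15 in the weakest class. Farther from the TSS, 24 endothelial regions held 1583 and 1999 counts (0.20 on the log2 scale). Their median was 0.82, with 17 above 0 and 11 at least 2-fold higher, against 15.6% of all other regions, and 2 at least 2-fold lower. The 9 macrophage regions there held 882 and 529 counts (−0.87), but their median was 0.10, with 5 above 0, and the lowest was at −5.97. The promoter regions of 4 of 8 cholangiocyte markers held 746 and 643 counts, and 12 other regions 3282 and 2938. Those of 2 of 8 stellate cell markers held 727 and 175, of which *Reln* gave 690 and 132, and 3 other regions of stellate markers 76 and 140, while 0 of 8 lymphocyte markers had a promoter region and 2 other regions of theirs held 61 and 115. The promoter regions of the 8 hepatocyte markers held 4451 and 3525 counts, a log2 ratio of −0.47, with a median of −0.53 over 9 regions that ran from *Ttr* at −1.08 to *Alb* at 0.015, and their 53 other regions held 16916 and 14992, a log2 ratio of −0.31. In whole liver, a smaller share of hepatocytes and lower accessibility in each hepatocyte cannot be told apart, and the part of cell composition in the ratios of the 8 genes was not tested.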

How the data were processed

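ATAC-seq was analysed for 1 pooled liver library per genotype. As described in the study's methods, the authors trimmed adaptors with skewer, aligned reads with BWA, kept non-mitochondrial, properly paired reads above a mapping quality limit, and called peaks in each library with MACS2, retaining duplicates. The build is GRCm38, per the labels. How peaks were merged, how reads were counted and whether read ends were shifted for Tn5 are not given in the sources used here. For each region the authors deposited the raw count of each library, RPM values, a fold enrichment ratio over the genome (used only to check that starts count from 0), a log2 ratio of the libraries (their own comparison, not used) and the distance in bp to 1 TSS per gene. Their RPM equals the count plus 1 times a factor, which gave totals of 52826202 and 58038305. Starts were converted to count from 1.

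The table has 74821 rows, and each distinct region was used once. All 8 genes were matched by symbol. Log2 ratios were recomputed from the counts with 1 read added. Intervals are at 95% and use the counts without the added read: Clopper-Pearson for a ratio, Poisson for a density and exact conditional odds ratios for differences between regions. They cover counting error only. Whether the counted reads include duplicates is not given, and duplicates would make the intervals too narrow. With 1 library per group no p-value was computed, and "2-fold" is a limit of size. The Clopper-Pearson intervals were also computed on simulated counts with counting error only, and the share that held the true ratio is not given here. Genes named from the list are the highest and lowest of each class by the log2 ratio of their strongest promoter region, and others given by name in the rule, some of which are not reported here, nor is 1 class of the list. *Reln* and genes without a promoter region were named after their values were seen. The members, the lists and the alternatives were chosen with earlier results of these data known. Motifs were searched in RefSeq promoter sequences of GRCm38.p6, which held all 8 genes and 47 of the 65 list genes. The scripts ran under Python 3.11.15 with numpy 2.4.6, scipy 1.17.1, pandas 2.3.3 and, for plots, matplotlib 3.10.9.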

Additional observations from a re-analysis of the deposited data

How the results depend on the processing

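Centred on the median of all regions, 1 other region of the 8 genes and 4 promoter regions of the list were at least 2-fold lower. The shares were 8.65% of all other regions and 5% of all promoter regions. The median log2 ratio was −0.35 for the promoter regions of the 8 genes, −0.22 for their other regions and −0.39 for promoter regions of the list. Centred on the strongest 10% of promoter regions, whose median was −0.65, these medians were −0.080, 0.054 and −0.12. No promoter region and no other region of the 8 genes (0 and 0) was then 2-fold lower and 4 other regions were 2-fold higher, and in the list 1 promoter region was lower and 7 higher, while 1.99% and 9.86% of all promoter regions and 4.69% and 30.2% of all other regions were lower and higher. The strongest promoter regions of *Cpt1a*, *Cpt2*, *Acadm* and *Acadl* had ratios above 0 on that scale (0.024 to 0.14). Those of *Ehhadh*, *Ppara*, *Hadha* and *Fgf21* did not (−0.91, −0.43, −0.26 and −0.013). For *Fgf21* this is the region 973 bp upstream and not the one over its start, which stood at −1.39 on the authors' scale. With 10 reads added, 2 other regions were 2-fold lower and 1 list region was 2-fold higher (15% of all other and 2.32% of all promoter regions). Of 55 list regions within 500 bp, 1 was 2-fold higher (3.33% of all regions there), and of 87 within 2 kb, 24 were 2-fold lower (17.2%). At 1.5-fold, 7 promoter and 16 other regions of the 8 genes and 47 list regions were lower, where 47.8% of all promoter regions and 36.5% of all other regions were. No paired analysis was possible because each group has 1 library. Weak regions such as those of *Fgf21* have wide intervals.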

Other observations

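Outside promoters, 167 regions were nearest to genes of the pathway list, with a median log2 ratio of −0.72, 51 at least 2-fold lower and 13 at least 2-fold higher, and 24 and 17 relative to the median of all regions. Among all other regions the shares were 18.8% and 15.6%, and 8.65% and 23.5% after centring. By class, the 52 regions of receptor partners and coregulators had a median of −0.71, with 11 at least 2-fold lower and 4 higher. The 29 regions of further PPARα targets had a median of −0.88, with 11 at least 2-fold lower and 2 higher. The 28 of peroxisomal and microsomal oxidation had −0.83, with 12 lower and 3 higher. The 17 regions of mitochondrial β-oxidation had a median of −0.64, with 5 lower and 0 higher. The median was −0.23 over 20 regions of activation and mitochondrial entry (4 lower and 3 higher) and 0.18 over 8 regions of the FGF21 receptors (1 lower and 1 higher). These are not all classes of the list, no test between classes was made, and the median of all other regions was −0.27.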
